A study of Mus musculus with 9 samples.

Results

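The genes described here encode the B-cell receptor (BCR) signaling chain: Cd79a and Cd79b, the receptor's signaling subunits, Ms4a1, which encodes the B-cell surface protein CD20, the kinases Lyn, Syk and Btk, the adaptor Blnk, and the phospholipase Plcg2. They were chosen by symbol and are 8 of the 41128 genes counted. All 8 were among the 14057 genes that passed the filter on low counts, and the lowest count of any of them in any tumor was 1671.

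In B cells, surface immunoglobulin binds antigen and its partners CD79A and CD79B carry the signal across the membrane. LYN phosphorylates their tails, SYK docks there and phosphorylates BLNK, and BLNK brings BTK to PLCG2, which releases calcium and activates protein kinase C. Genes of the receptor and of CD20 are widely used as markers of B cells, whereas SYK, LYN, BTK and PLCG2 also act in myeloid cells.

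RNA-seq was performed on 9 mouse lymphomas, 1 library per tumor. The 3 Bcl6 tumors were Smc3 wt/wt and the 6 Smc3/Bcl6 tumors were Smc3 wt/-. Both genotypes carried the IµBcl6 transgene, under which B cells do not switch Bcl6 off, and a Cγ1 wt/cre allele, whose Cre recombinase is active from germinal center entry on and removes exon sequence of a floxed Smc3 allele in these B cells. By the labels, the replicate 1 tumors came from the mesenteric lymph node, and the remaining 7 from a lymph node not named further, whereas the study's text gives the mesenteric node for all of them, so the split by label may not be one of tissue. Total counts ranged from 10156728 to 17774577 per tumor. Smc3 itself, a cohesin subunit, had 126, 99.5 and 88.1 CPM (counts scaled to library size by the TMM method) in the Bcl6 tumors, and in the Smc3/Bcl6 tumors its lowest value was 27.9, its median 106 and its highest 111. The lowest was Smc3/Bcl6 tumor 2, and the other 5 lay between 89.7 and 111, within the Bcl6 range. Its log2 fold change was -0.19 (standard error 0.38).

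The tumors were not pure B-cell samples, and 1 library stood apart. The summed level of 15 B-cell markers other than these 8 genes ran from 3487 to 10041 CPM in Bcl6 and from 5492 to 11997 CPM in Smc3/Bcl6 tumors, so the labelled B-cell origin was visible in every tumor. The 12 T-cell markers summed to 326 to 3129 CPM in Bcl6 and 92.8 to 2961 in Smc3/Bcl6 tumors, led by Lck, and the 12 macrophage markers to 439 to 8010 and 271 to 8509, led by Lyz2. No gene of the marker lists was at 0 in all tumors. Smc3/Bcl6 tumor 2 had low counts of long genes: the Spearman correlation across genes of its deviation with exon length was -0.466, against -0.0303 to 0.273 in the other 8 tumors. In bulk tumors, fewer cells of a type and less RNA per cell cannot be told apart.

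Cd79a (ENSMUSG00000003379.7, chromosome 7, 24897381 to 24902197 of GRCm38, plus strand) and Cd79b (ENSMUSG00000040592.6, chromosome 11, 106311341 to 106314762, minus strand) encode the receptor's heterodimeric signaling partner. Per kilobase of exon they had the highest levels of the 8 genes, with means over 9 tumors of 623 CPM per kb for Cd79a and 960.2 for Cd79b. RefSeq promoter sequences of GRCm38.p6 matched 5 of the 8 genes: Cd79a, Plcg2, Syk, Blnk and Btk. Those of Cd79a are shown because Cd79a had the highest rank correlation with the B-cell markers in the data below. The first run lies at chr7:24897247-24897380 and the second at chr7:24897431-24897460, both on the plus strand, and capitals mark CAGGTG (an E-box) in the first and AGGAAGT (an Ets-type motif) in the second. In GENCODE M21 the first run ends just before the annotated start of Cd79a, and the second lies inside the annotated gene, upstream of the RefSeq start.
Cd79a upstream run: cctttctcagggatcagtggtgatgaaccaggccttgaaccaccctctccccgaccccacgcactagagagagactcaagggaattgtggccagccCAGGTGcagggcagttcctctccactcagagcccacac
Cd79a Ets-type motif: cacggctgaacAGGAAGTgaggcggagttt

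Cd79a had 1191, 722 and 277 CPM in Bcl6 tumors 1, 2 and 3, and in the Smc3/Bcl6 tumors its lowest value was 650.4, its median 812 and its highest 1868. Bcl6 tumor 3 was the lowest of the 9 tumors and Smc3/Bcl6 tumor 4 the highest, and the genotypes overlapped. The means were 729.8 ± 457 CPM (SD, n = 3) and 997 ± 453 CPM (SD, n = 6), a log2 fold change of 0.45 (standard error 0.49). Cd79b had 1619, 929 and 792 CPM in the Bcl6 tumors, and in the Smc3/Bcl6 tumors its lowest value was 846, its median 1581 and its highest 2303. The genotypes overlapped here too, and the highest value belonged to Smc3/Bcl6 tumor 2. The means of Cd79b were 1113 ± 443 CPM (SD, n = 3) and 1504 ± 578 CPM (SD, n = 6), a log2 fold change of 0.43 (standard error 0.41).

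The 2 subunits are needed in equal numbers at the protein level, and their ratio in RNA was not constant. Cd79a over Cd79b in CPM was 0.736, 0.777 and 0.349 in the Bcl6 tumors. In the Smc3/Bcl6 tumors it was 0.454, 0.344, 0.834, 1.04, 0.769 and 0.805 in replicates 1 to 6. Bcl6 tumor 3 and Smc3/Bcl6 tumors 1 and 2 therefore stood below the other 6, in both genotypes. In Smc3/Bcl6 tumor 2 the ratio came from a high Cd79b, which lay 0.95 above the mean of the other tumors on the log2 scale, whereas Cd79a differed by -0.04. After correction for gene length and GC content these became -0.17 for Cd79b and -1.15 for Cd79a, so which subunit stood apart in that tumor depended on the correction.

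Ms4a1 (ENSMUSG00000024673.9, chromosome 19, 11249675 to 11266241, minus strand), the gene of CD20, varied most of the 8. It had 1867, 845 and 276 CPM in the Bcl6 tumors, and in the Smc3/Bcl6 tumors its lowest value was 359, its median 1079 and its highest 2518. Smc3/Bcl6 tumor 2 and Bcl6 tumor 3 had the lowest values and Smc3/Bcl6 tumor 4 the highest, 9.11 times Bcl6 tumor 3. The means were 996 ± 806 CPM (SD, n = 3) and 1279.8 ± 743 CPM (SD, n = 6). The difference, a log2 fold change of 0.36, was smaller than its standard error of 0.66, and over the 6 tumors of replicates 1 to 3 it was -0.21 with replicate number as a block and -0.33 without the block.

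Lyn (ENSMUSG00000042228.9, chromosome 4, 3678115 to 3813122, plus strand), the Src-family kinase that starts the cascade, varied least. It had 610.1, 346 and 385 CPM in the Bcl6 tumors, and in the Smc3/Bcl6 tumors its lowest value was 306, its median 429.6 and its highest 549. The genotypes overlapped over most of their range, and the highest of the 9 tumors had 2.00 times the lowest. The means were 447 ± 143 CPM (SD, n = 3) and 434 ± 106 CPM (SD, n = 6), and the log2 fold change was -0.04 (standard error 0.30), the only negative one of the 8. Of the exon bases of Lyn, 6.09% overlap those of the antisense noncoding gene Gm26857, and since the strand setting of the counting is not given in the sources used here, reads of the 2 genes cannot be told apart there.

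Syk (ENSMUSG00000021457.9, chromosome 13, 52583173 to 52648792, plus strand) encodes the kinase that docks on the receptor tails. It had 712, 392 and 854 CPM in the Bcl6 tumors, and in the Smc3/Bcl6 tumors its lowest value was 278, its median 678 and its highest 1194. Its values fell into a lower set and a higher set in both genotypes, with Bcl6 tumor 2 and Smc3/Bcl6 tumors 2, 3 and 5 low. The means were 653 ± 237 CPM (SD, n = 3) and 704 ± 389.7 CPM (SD, n = 6), with a log2 fold change of 0.11 (standard error 0.51). Bcl6 tumor 3, the lowest for Cd79a, was among the higher tumors for Syk, so that its ratio of Syk to Cd79a was 3.08, whereas the other 8 tumors had ratios between 0.352 and 1.44. The same tumor had the highest sum of neutrophil markers, 1959 CPM against 26.4 to 878 in the others, and their part in its Syk level was not tested. Its macrophage sum was 8010 CPM, and Smc3/Bcl6 tumors 2, 3 and 5, with 7572, 8509 and 7590 CPM, were low for Syk. By the mean log2 CPM of the macrophage markers, Bcl6 tumor 3 (7.01) and Smc3/Bcl6 tumor 4 (6.93), both high for Syk, were the highest. Smc3/Bcl6 tumor 1, the highest for Syk, had the lowest mean (2.65). The part of macrophages in the Syk level was not tested either.

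Btk (ENSMUSG00000031264.8, chromosome X, 134542336 to 134583570, minus strand), the kinase that activates PLCG2, had 291, 132 and 158 CPM in the Bcl6 tumors. In the Smc3/Bcl6 tumors its lowest value was 129, its median 194 and its highest 279. It had the lowest level of the 8 genes per kilobase of exon, 62.8 CPM per kb, next to 73.4 for Syk. The means were 193 ± 85.4 CPM (SD, n = 3) and 199.97 ± 51.2 CPM (SD, n = 6), a log2 fold change of 0.05 (standard error 0.33), and the genotypes overlapped.

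Blnk (ENSMUSG00000061132.8, chromosome 19, 40928927 to 40994535, minus strand), the adaptor between SYK and BTK, had the largest fold change of the 8. It had 793, 477 and 365 CPM in the Bcl6 tumors, and in the Smc3/Bcl6 tumors its lowest value was 355, its median 846 and its highest 1341. Smc3/Bcl6 tumor 3 was below every Bcl6 tumor and Smc3/Bcl6 tumor 2 the highest of all, so the genotypes overlapped. The means were 545 ± 222 CPM (SD, n = 3) and 839 ± 329 CPM (SD, n = 6), a log2 fold change of 0.62 (standard error 0.42). Its unadjusted p of 0.173 from edgeR missed the threshold. Blnk did pass the study's thresholds with limma and quality weights (0.68, unadjusted p = 0.0463), as 11.7% of all genes did in that fit. It also passed without Bcl6 tumor 1 (0.92), where 126 genes higher and 240 lower passed of 14637 tested. Without Smc3/Bcl6 tumor 3 it passed too (0.77), beside 303 genes higher and 321 lower of 13830 tested. The RefSeq promoter window of Blnk was the only one of the 5 genes' windows with ATTTGCAT, the reverse complement of the octamer ATGCAAAT, and this site, chr19:40994331-40994360 on the minus strand, is shown for that reason with the octamer and CCAAT in capitals. It lies inside an annotated Blnk exon in GENCODE M21 and upstream of the RefSeq start.
Blnk octamer site: ctggaagggATTTGCATgcCCAATaaggtt

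Plcg2 (ENSMUSG00000034330.9, chromosome 8, 117498291 to 117635142, plus strand) encodes the phospholipase at the end of the chain. It had 711, 326 and 381 CPM in the Bcl6 tumors, and in the Smc3/Bcl6 tumors its lowest value was 232, its median 466 and its highest 748. The means were 473 ± 208 CPM (SD, n = 3) and 482 ± 189 CPM (SD, n = 6), a log2 fold change of 0.03 (standard error 0.41). The genotypes overlapped over nearly their whole range. The upstream sequences of Plcg2 (chr8:117498025-117498274, plus strand) and Btk (chrX:134583141-134583390, minus strand) are shown because the levels of these genes ran together in 8 of the tumors, as given below. The Plcg2 run lies upstream of the annotated gene, and the Btk run inside the annotated span of Btk, upstream of its RefSeq start. Capitals mark the E-box CAGGTG in Plcg2, and the Btk window held none of the motifs searched.
Plcg2 upstream run: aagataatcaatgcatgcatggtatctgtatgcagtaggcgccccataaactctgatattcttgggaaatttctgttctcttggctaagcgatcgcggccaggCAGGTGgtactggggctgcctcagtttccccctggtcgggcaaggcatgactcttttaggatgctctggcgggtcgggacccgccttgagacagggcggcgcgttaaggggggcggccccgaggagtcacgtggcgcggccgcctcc
Btk upstream run: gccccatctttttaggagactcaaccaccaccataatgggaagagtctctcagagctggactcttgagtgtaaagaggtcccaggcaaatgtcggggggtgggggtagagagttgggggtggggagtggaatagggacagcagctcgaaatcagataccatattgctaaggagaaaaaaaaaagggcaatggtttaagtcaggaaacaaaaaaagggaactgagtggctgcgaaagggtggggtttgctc

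The motifs were searched on both strands in the 250 bases before each RefSeq start. Of 32851 promoters, 1.601% held the octamer ATGCAAAT and 7.69% the Ets-type motif AGGAAGT. The E-box CAGGTG was in 17.2% of the promoters, the CCAAT box in 33.8% and a TATAAA box in 12.4%. The E-box was found in Cd79a, Plcg2, Syk and Blnk, the Ets-type motif in Cd79a and Blnk, and the TATA box in none of the 5 genes' windows. These matches are descriptions of letters in a window and not sites of binding.

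**Figure D1:**
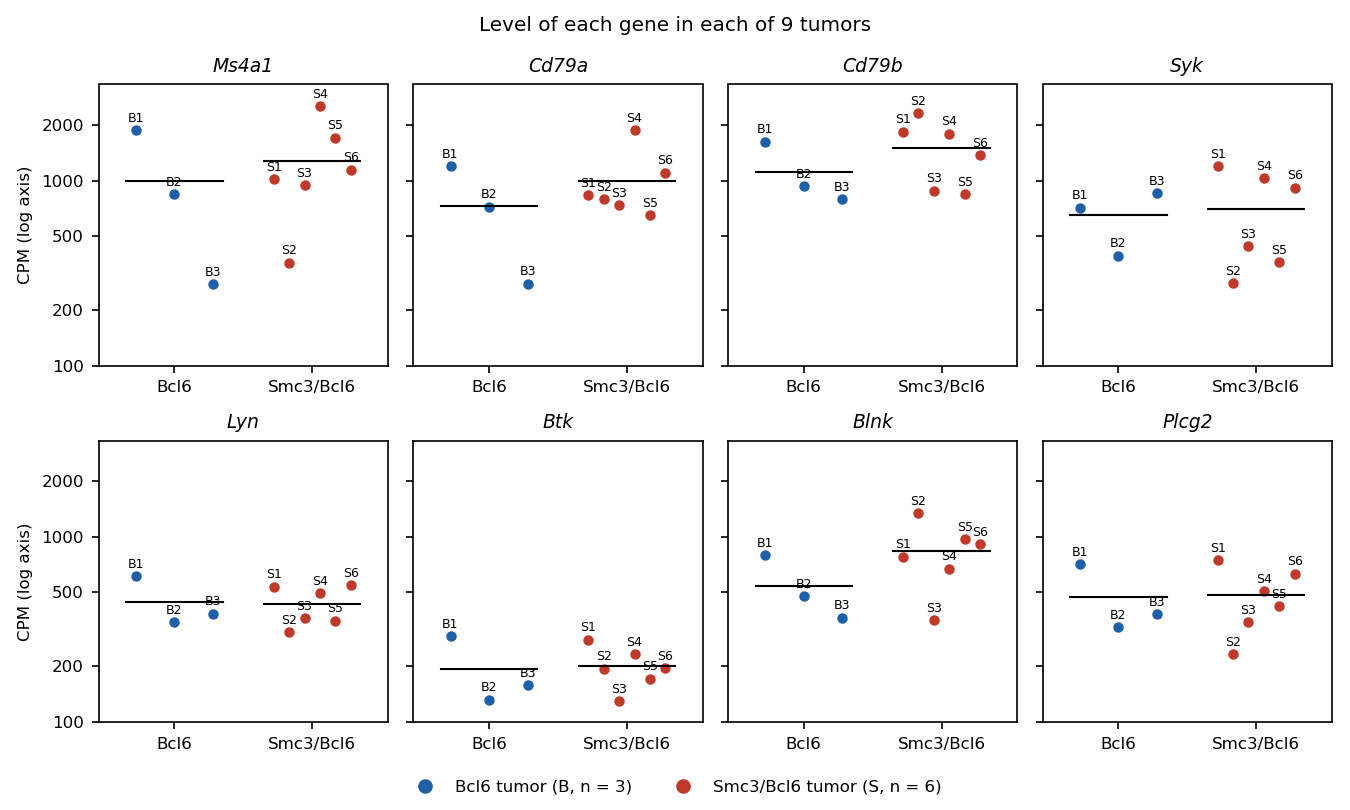
Level of each of the 8 genes in CPM on a log axis, 1 point per tumor (B1 to B3, Bcl6 tumors; S1 to S6, Smc3/Bcl6 tumors), with a line at the mean of each genotype. The genotypes overlapped for every gene, Ms4a1 spread most (276 to 2518 CPM) and Lyn least (306 to 610.1 CPM), and tumor S2 was the highest for Cd79b and Blnk and the lowest for Syk, Lyn and Plcg2.

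Whether loss of 1 Smc3 allele changed these genes was asked with edgeR's quasi-likelihood test over all genes tested. None of the 8 passed the study's thresholds, an unadjusted p below 0.1 with an absolute log2 fold change above 0.56, which 2.15% of all genes passed, 1.28% higher and 0.868% lower in Smc3/Bcl6 tumors. Replicate numbers 1 to 3 occur in both genotypes, so a fit with the number as a block used 6 tumors. It gave 45 genes higher and 254 lower of 13360 tested, the same 6 tumors without the block gave 168 and 88, all 9 tumors gave 180 and 122, and none of the 8 passed in any of these. None had an adjusted p below 0.05 by edgeR, DESeq2 or limma, as 0% of all genes did in the edgeR fit. At an unadjusted p below 0.05 there were 0 of the 8 by edgeR or DESeq2 and 1, Blnk, by limma, beside 0.562% of all genes by edgeR and 8.33% by limma. The adjusted p from edgeR with Benjamini-Hochberg adjustment was 1.00 for each of the 8.

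In 7 of the 8 genes the log2 fold change was positive, against 57.4% of all genes tested, and the median was 0.24 against 0.06 over all genes. Each was smaller than 2 standard errors. Over the 6 tumors of replicates 1 to 3, Ms4a1, Syk and Plcg2 had the opposite sign, at -0.33, -0.07 and -0.10 without the block and -0.21, -0.28 and -0.22 with it. Without Smc3/Bcl6 tumor 2 Lyn became 0.06, and the values of the others stayed positive, from 0.08 for Btk to 0.60 for Ms4a1. The values of 0 of the 8 genes separated the genotypes without overlap, a pattern found in 0.484% of all genes. The 15 B-cell markers had the same direction, 15 of 15 positive with a median log2 fold change of 0.24 and 0 past the thresholds, and the 12 T-cell markers the opposite, 0 of 12 positive with a median of -0.66. The part of cell composition in these values was not tested.

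**Figure D2:**
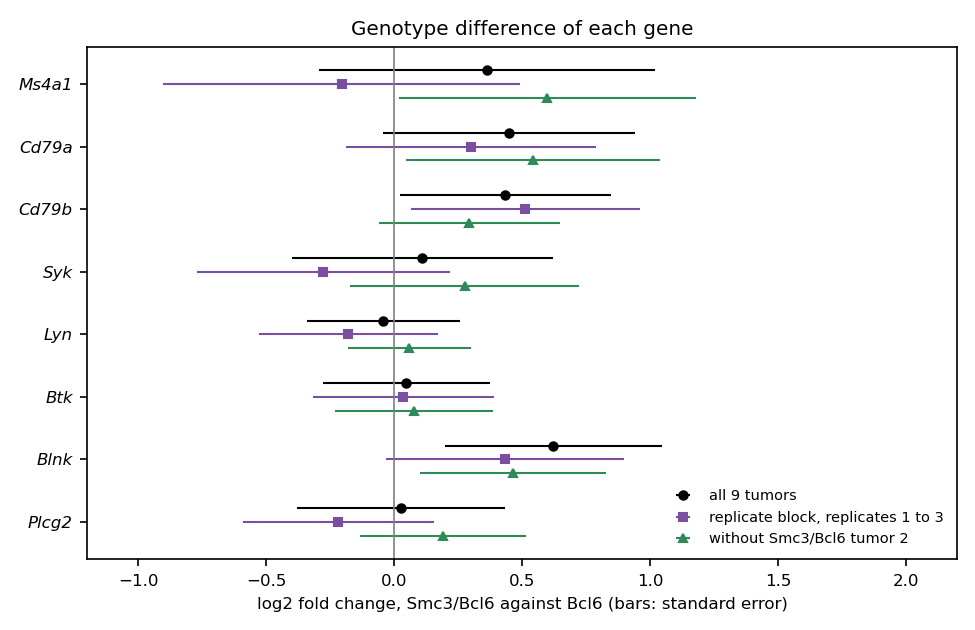
Log2 fold change of each gene, Smc3/Bcl6 against Bcl6, with its standard error as a bar, in the fit of all 9 tumors, with a block for the replicate numbers over the 6 tumors whose numbers both genotypes share, and without Smc3/Bcl6 tumor 2. Blnk was highest with all 9 tumors at 0.62, Lyn lowest at -0.04, and Ms4a1, Syk and Plcg2 had the opposite sign in the blocked fit of 6 tumors.

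The rest of the pathway gave a like picture. Of 49 other BCR signaling genes in 4 lists, some of them (such as Cd22, Blk, Bank1, Cr2 and Cd72) also among the B-cell markers used here, all 49 were tested, 1 passed the study's thresholds and 0 had an adjusted p below 0.05 in edgeR, or an unadjusted p below 0.05. Over all genes 2.15% passed and 57.4% were positive. The log2 fold change was positive in 30 of the 49, with a median of 0.04 against 0.06 over all genes. The gene that passed was Cd81, a tetraspanin of the B-cell surface, with means of 181 ± 34.4 CPM (SD, n = 3) and 315 ± 154 CPM (SD, n = 6). Its log2 fold change was 0.79 (standard error 0.43, unadjusted p = 0.0973 in edgeR).

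Among 5 coreceptor genes the median log2 fold change was 0.22. Next to Cd81, Cr2, a complement receptor, had 1.41 (standard error 1.82), and Ptprc, the phosphatase CD45 that primes Src-family kinases, had -0.47 (0.55), with Ifitm1 at -0.33 (1.02). The 12 inhibitory receptors and phosphatases had a median of 0.13 and none passed. They ran from Cd5, a brake on antigen-receptor signaling that T cells express too, at -1.19 (standard error 1.10) and Pirb at -0.47 (0.64) to Dok3 at 0.37 (0.51) and Siglecg at 0.42 (1.04).

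Of 14 other kinases and adaptors none passed, with a median log2 fold change of -0.06. The lowest were Fyn, a Src-family kinase abundant in T cells, at -0.67 (standard error 0.62) and Sh3bp2 at -0.36 (0.30), and the highest Pik3ap1 at 0.29 (0.33) and Blk, a B-cell Src-family kinase, at 0.38 (0.44). Of 18 genes downstream in the PI3K, PKC and NF-kB branches none passed, with a median of 0.05. The ends of that list were the calcium sensor Stim1 at -0.27 (0.27) and the PI3K subunit Pik3cd at -0.21 (0.37), and the GTPase Rac2 at 0.27 (0.40) and the Ras activator Rasgrp3 at 0.58 (0.48).

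The 8 genes varied between tumors about as much as other genes: the median SD of log2 CPM over 9 tumors was 0.62, against 0.63 for all genes tested. How far this spread followed other B-cell markers was measured by correlating log2 CPM with the mean log2 CPM of the 15 B-cell markers over the 9 tumors, by exact two-sided permutation of the pairings. There were 24 relations (8 genes with B-cell, T-cell and macrophage markers), and p-values were adjusted over them by the Benjamini-Hochberg method, for Pearson and Spearman separately. The share of all genes with relations as strong is not given. The counts of genes passing below, with any marker list, therefore do not show that these genes differ from other genes. All values come from the same libraries and share their scaling. The mean gives each marker the same weight, so a marker of wide range moves it most. Cr2 ran from 0.423 CPM in Smc3/Bcl6 tumor 2 to 1026 CPM in Smc3/Bcl6 tumor 4, the tumors with the lowest and highest mean. The part of single markers in the r values was not tested, and the mean is not a direct measure of B-cell content. It ranked Smc3/Bcl6 tumor 2 otherwise than the sum did. That tumor had the lowest mean, 6.77. Its sum of 6654 CPM was above those of Bcl6 tumors 2 and 3 (5433 and 3487) and Smc3/Bcl6 tumor 3 (5492).

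Cd79a gave r = 0.824 (exact p = 0.0053, adjusted 0.0343) and rho = 0.833 (exact p = 0.00827, adjusted 0.0646). Ms4a1 gave r = 0.867 (exact p = 0.00382, adjusted 0.0343) and rho = 0.817 (exact p = 0.0108, adjusted 0.0646). These were the 2 genes past an adjusted p of 0.05 by r, and by rho neither passed. Without the 2 tumors farthest from the median of the marker mean, Smc3/Bcl6 tumors 2 and 4, r was 0.944 for Cd79a and 0.748 for Ms4a1.

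Lyn had r = 0.773 (exact p = 0.0159, adjusted 0.0636) and rho = 0.783, and Plcg2 r = 0.708 (exact p = 0.0336, adjusted 0.101) and rho = 0.717. For Syk r was 0.575 (exact p = 0.110, adjusted 0.219) and 0.219 without the 2 farthest tumors. Without Bcl6 tumor 3, where Syk was high and the B-cell markers low, it was 0.813 (exact p = 0.0103, adjusted 0.0490, n = 8), and 0.666 with the 2 farthest left out as well. This leave-out was chosen after seeing the data and removes a tumor where Syk and the markers diverged. Its p is therefore not a test of the relation. Btk had r = 0.525 (exact p = 0.149, adjusted 0.239). Cd79b and Blnk did not pass either, at r = 0.308 (exact p = 0.410, adjusted 0.497) and r = -0.0013 (exact p = 0.997, adjusted 0.997).

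These calls changed when single tumors were left out. Without Smc3/Bcl6 tumor 2, the library with low counts of long genes, Cd79a had r = 0.965 (exact p = 2.48e-05, the smallest that 40320 pairings can give, adjusted 0.000595, n = 8) and its rank order matched that of the B-cell markers in all 8 tumors. Cd79b then had r = 0.853 (exact p = 0.00238, adjusted 0.019, n = 8), whereas Ms4a1 had 0.819 with an adjusted p of 0.0613 and Blnk 0.430 with 0.346. The number of genes past an adjusted p of 0.05 was 2 with all tumors and 0 without Bcl6 tumor 1 or 2, or Smc3/Bcl6 tumor 1, 3 or 4. It was 1 without Smc3/Bcl6 tumor 5, 2 without tumor 6 and 4 without Bcl6 tumor 3. A lost call did not always mean a changed r. Without Bcl6 tumor 2, r stayed at 0.867 for Ms4a1 and 0.824 for Cd79a, and neither passed with n = 8. Within the 7 tumors labelled lymph node, r was 0.817 for Cd79a (exact p = 0.0327, adjusted 0.196) and 0.854 for Ms4a1 (exact p = 0.0159, adjusted 0.159), so 0 passed. The 2 tumors labelled mesenteric lymph node were too few for a value of their own.

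**Figure D3:**
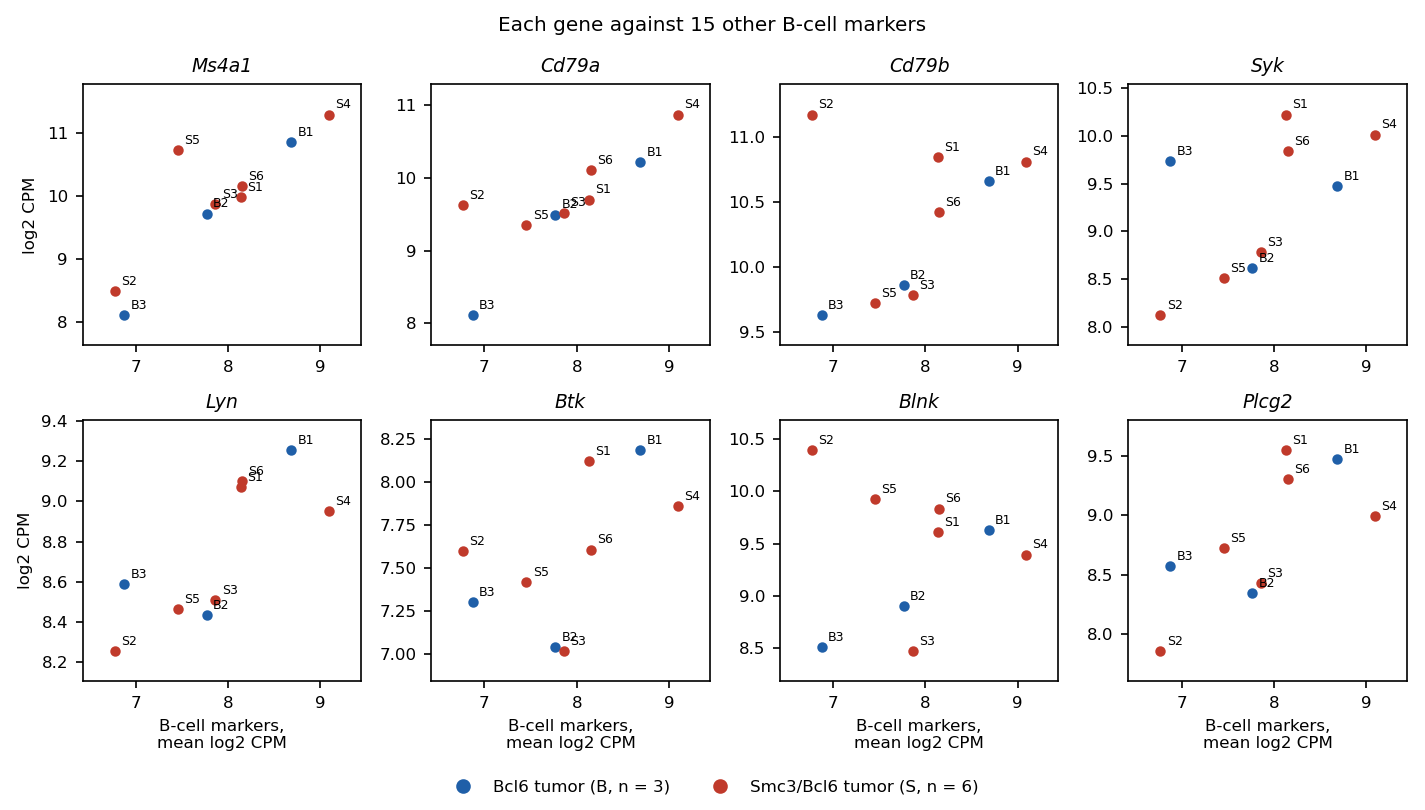
Log2 CPM of each gene against the mean log2 CPM of 15 other B-cell markers, 1 point per tumor (B, Bcl6; S, Smc3/Bcl6), with axes that differ between genes. Cd79a and Ms4a1 rose along the markers (r = 0.824 and 0.867 over 9 tumors), and tumor S2 stood above the other tumors for Cd79b and Blnk.

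The B-cell marker mean was also subtracted from each gene. The SD of log2 CPM over the 9 tumors went from 1.05 to 0.54 for Ms4a1 and from 0.75 to 0.45 for Cd79a, and without Smc3/Bcl6 tumor 2 from 0.80 to 0.23 for Cd79a. For Cd79b it grew from 0.58 to 0.81 with all tumors and shrank from 0.52 to 0.37 without that tumor. For Lyn it grew from 0.36 to 0.54, for Btk from 0.43 to 0.65 and for Blnk from 0.66 to 1.01. The marker mean ran from 6.77 in Smc3/Bcl6 tumor 2 to 9.09 in Smc3/Bcl6 tumor 4. Subtracting it can therefore widen a gene of small spread that rises with it. The SD of Lyn grew although its r with the markers was 0.773, so growth alone does not show that a gene departed from the markers. Syk (0.76 to 0.70) and Plcg2 (0.57 to 0.54) changed little.

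With the macrophage markers r ran from -0.65 for Btk (exact p = 0.0510, adjusted 0.136) to -0.18 for Cd79a, and none passed. In the 7 tumors labelled lymph node the sign turned for 5 genes, Cd79b (0.0231), Syk (0.68), Lyn (0.343), Btk (0.237) and Plcg2 (0.191). It stayed negative for Ms4a1 (-0.129), Cd79a (-0.0791) and Blnk (-0.506). The tumors outside that label, Bcl6 tumor 1 and Smc3/Bcl6 tumor 1, were also the 2 farthest from the median of the macrophage mean. The label and these far values therefore cannot be told apart here.

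On the T-cell markers the tumors lay in separate clusters, so no pooled r is given. Of the 8 relations with these markers, which are among the 24 used for adjustment, 3 passed an adjusted p of 0.05 by exact permutation of Pearson r. All were negative: Plcg2, Lyn and Btk. By rho only Plcg2 passed (adjusted 0.0487), and Lyn and Btk did not (0.0733 and 0.0646). Without Smc3/Bcl6 tumor 2, Plcg2 and Btk passed by r (adjusted 0.0190 and 0.0405) and Lyn did not (0.0621). With the tumors in clusters, these calls do not show a graded relation. The 4 tumors with the lowest mean log2 CPM of these markers (Bcl6 tumor 1 and Smc3/Bcl6 tumors 1, 4 and 6) had 1.76 to 3.72, Smc3/Bcl6 tumor 5 had 5.94, and the other 4 had 7.15 to 7.55. Lyn had 495 to 610.1 CPM in the 4 tumors and 306 to 385 in the other 5. Plcg2 had 509.99 to 748 against 232 to 423, Btk 195 to 291 against 129 to 194, and Cd79a 831 to 1868 against 277 to 792. These 4 genes did not overlap and were higher in the 4 tumors, as 3.59% of all genes were, while 4.66% of all genes were lower there without overlap. The other genes overlapped, Ms4a1 with 1015 to 2518 against 276 to 1702, Cd79b with 1369 to 1833 against 792 to 2303, Syk with 712 to 1194 against 278 to 854, and Blnk with 672 to 912 against 355 to 1341. This split was read off the data, holds both genotypes on each side, and was not tested.

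**Figure D4:**
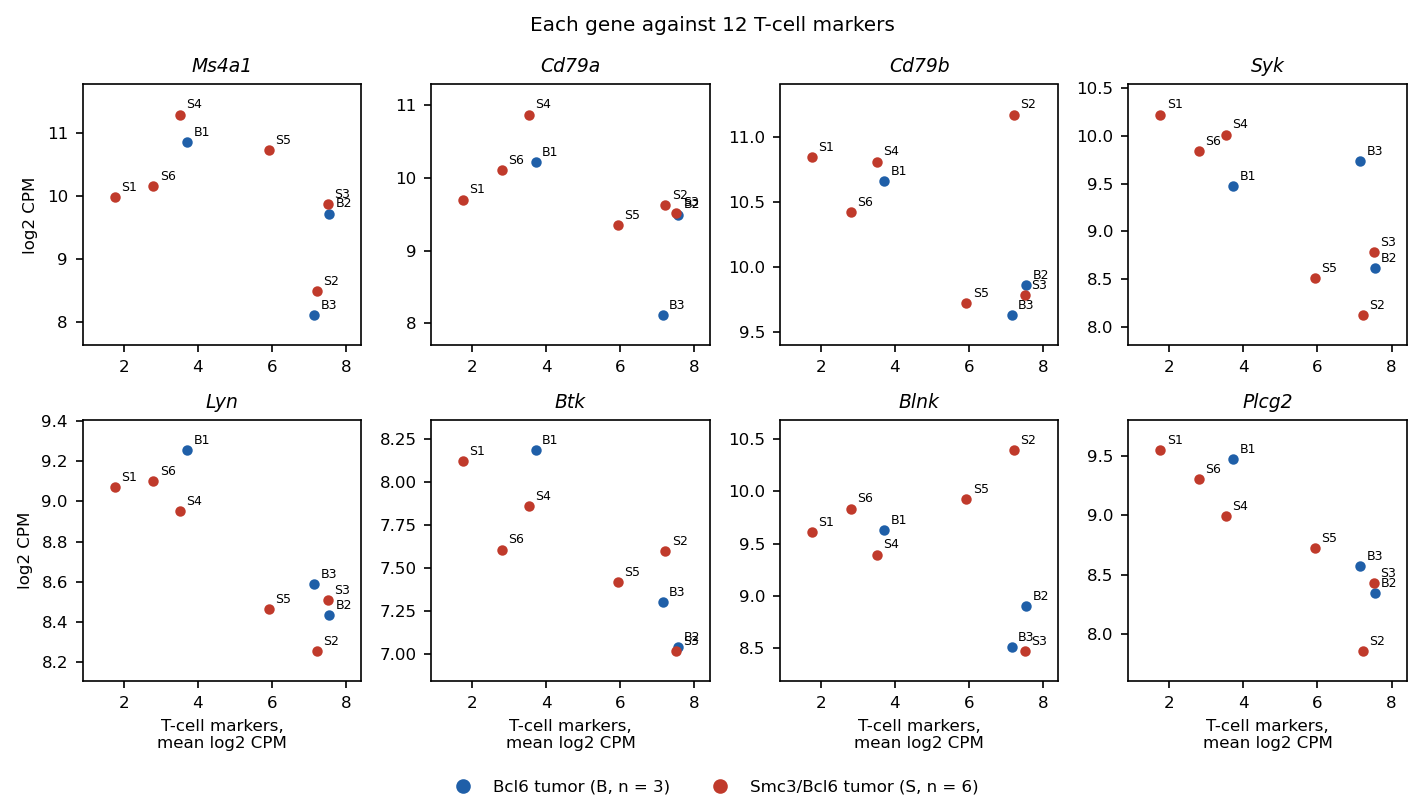
Log2 CPM of each gene against the mean log2 CPM of 12 T-cell markers, 1 point per tumor (B, Bcl6; S, Smc3/Bcl6), with axes that differ between genes. The 4 tumors at 1.76 to 3.72 on the horizontal axis, B1, S1, S4 and S6, lay above the other 5 for Lyn, Plcg2, Btk and Cd79a, and not for Ms4a1, Cd79b, Syk and Blnk.

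Among themselves the 8 genes formed 28 pairs, whose r over the 9 tumors ran from -0.17 to 0.95 with a median of 0.53. Lyn and Plcg2 ran together most closely, at 0.95, and also at 0.94 without Smc3/Bcl6 tumor 2 and 0.92 after the length and GC correction. Their ratio, Plcg2 over Lyn in CPM, stayed between 0.759 and 1.39 in all 9 tumors. Cd79a and Ms4a1 had r = 0.78 and Cd79a and Cd79b 0.64, which became 0.89 and 0.78 without that tumor. Btk and Plcg2 rose from 0.72 to 0.94, and Syk and Blnk had the lowest value with all tumors, -0.17. These are descriptions over libraries that share their scaling.

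Smc3/Bcl6 tumor 2 carried much of that difference between settings. Relative to the mean of the other 8 tumors, on the log2 scale, it stood at -1.61 for Ms4a1, -1.28 for Syk, -1.07 for Plcg2 and -0.54 for Lyn, and at 1.10 for Blnk and 0.95 for Cd79b. Blnk, with 5991 exon bases, and Cd79b, with 1431, were thus both high there, although long and short genes differed in that library. After the length and GC correction Blnk stood at 1.67, Syk at -0.33 and Plcg2 at -1.01.

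The genes most like each member in log2 CPM over the 9 tumors were taken from all genes tested. For Ms4a1 they included 0610010K14Rik (r = 0.952) and Prr22 (0.943), both at low mean levels of 1.36 and 0.929 CPM. For Cd79a they were Traf5 (0.955), a signaling adaptor of tumor necrosis factor receptors, Strada (0.953) and C1galt1 (0.946), and without Smc3/Bcl6 tumor 2 Traf5 was still first (0.982). For Cd79b they were Gpr180 (0.961), Polg2 (0.954) and Gm11998 (0.948), and over 8 tumors Pikfyve was first (0.975). Each of these is a correlation over a few tumors out of 14057 genes.

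For Lyn the nearest gene was another member, Plcg2 (0.951), then Zzz3 (0.951) and Traf6 (0.947), a ubiquitin ligase of NF-kB signaling. For Syk they were Lifr (0.971), a cytokine receptor, Kifap3 (0.961) and Tfrc, the transferrin receptor (0.956), with Lifr first over 8 tumors too (0.975). For Btk they were Gorasp1 (0.949), Tmem241 (0.944) and Cyb5d1 (0.933), with Arl5b first over 8 tumors (0.994). For Blnk they were A530040E14Rik (0.976), Napsa, an aspartic protease (0.971), and Gm13033 (0.970, at a low mean of 1.42 CPM). Syvn1, a ubiquitin ligase of the endoplasmic reticulum, was first over 8 tumors (0.987). For Plcg2 they were Tmem57 (0.967), Zzz3 (0.962) and Slc39a9 (0.957), with Xrcc2 first over 8 tumors (0.983).

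The sum of the 8 genes ran from 3488 CPM in Bcl6 tumor 3 to 9124 CPM in Smc3/Bcl6 tumor 4, the tumors with the lowest and the highest sum of the B-cell markers as well. Per kilobase of exon the order of the means was Cd79b (960.2 CPM per kb), Cd79a (623), Ms4a1 (192), Blnk (124), Plcg2 (111), Lyn (108), Syk (73.4) and Btk (62.8). Over the 9 tumors the highest value was 6.75 times the lowest for Cd79a, 4.29 for Syk, 3.78 for Blnk, 3.23 for Plcg2, 2.91 for Cd79b and 2.25 for Btk.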

How the data were processed

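RNA from 9 lymphomas, 1 library per tumor, had been prepared with the Illumina TruSeq RNA kit. The authors ran the nf-core RNA-seq pipeline, aligned reads with STAR to mm10, counted them per gene with featureCounts on Gencode transcripts, and deposited raw counts in 1 table without normalization; the submitters' processing notes name R 4.0.2 and DESeq2 1.28.1. Columns that matched no sample numbered 0. Positions and exon lengths were taken from GENCODE M21 (GRCm38), where 97.9% of the identifiers matched. Total counts set the precision per tumor, and tumors, not reads, were the replicates.

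Groups and replicate numbers came from the labels. The genotype comparison used the quasi-likelihood test of edgeR 4.0.16 (R 4.3.3) after TMM scaling and edgeR's low-count filter, and p-values of all 14057 genes left were adjusted by Benjamini-Hochberg. CPM used TMM library sizes, and log2 CPM a prior count of 2. Alternatives were DESeq2 1.42.0, limma 3.58.1 with quality weights, other scalings and filters, tissue label, replicate block, a length and GC offset (lowess span 0.3), and each tumor left out. The leave-one-out relations other than that without Smc3/Bcl6 tumor 2, the relations within 7 tumors labelled lymph node, and the fit of replicates 1 to 3 without the block were chosen after seeing the data. Deviations of tumors with the same replicate number had r = 0.443, 0.113 and 0.155 for numbers 1 to 3, weak for numbers 2 and 3. The numbers were treated as pairs only in the fits with the replicate block, and the main fit had no block. The labels do not say what a shared number stands for.

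The 8 genes and all lists were chosen with earlier results of these data known. The genes named are the 8, in each pathway list those past the thresholds and the 2 highest and 2 lowest, for each of the 8 the 3 nearest genes, and the most abundant gene of each marker list. A gene of this rule is not reported here. Besides the lists of the report, sums in CPM over the tumors of each genotype (Bcl6, then Smc3/Bcl6) were 1919 to 2339 and 1057 to 6562 for plasma-cell markers (led by Jchain), 35.5 to 1959 and 26.4 to 878 for neutrophil (S100a8), 4.50 to 111 and 7.09 to 265 for mast-cell and basophil (Kit), 5.02 to 10.2 and 1.06 to 34.8 for platelet (Itga2b), 81.3 to 1268 and 30.0 to 2163 for NK-cell (Nkg7), 51.9 to 162 and 50.6 to 176 for dendritic-cell (Itgax), 98.6 to 128 and 24.6 to 344 for stromal and endothelial (Pecam1), and 45.3 to 1475 and 123 to 12952 for erythroid markers (Hbb-bs). Past the study's thresholds were 2 neutrophil markers, lower, and 3 erythroid markers, higher. The scripts were tested on simulated data.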

Additional observations from a re-analysis of the deposited data

Results flagged for a closer look

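Of 15 measures examined for a tumor far from the others of its group (the 8 genes, marker means and ratios, in the 6 Smc3/Bcl6 tumors), 1 stood out, and chance alone flags about 1 in 20. The mean log2 CPM of the 12 macrophage markers was 2.65 in Smc3/Bcl6 tumor 1, and its gap to the nearest other tumor was 0.742 of the range, above the critical value of 0.625. Bcl6 tumor 1, which shares its replicate number and its mesenteric label, was the lowest of its genotype too, at 4.15 against 5.83 and 7.01. None of the 8 genes stood out by this measure.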

How the results depend on the processing

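The numbers of all genes past the study's thresholds depended on the fit. Against 180 higher and 122 lower, there were 576 and 812 with no filter on low counts, 342 higher with DESeq2, 642 and 1002 with limma and quality weights, 192 lower with the tissue label, and 84 to 339 higher and 61 to 321 lower with 1 tumor left out. Treating the replicate number as a block, with the pairing described for the processing, over the 6 tumors of replicates 1 to 3 gave 45 and 254, and 67 and 252 with the length and GC offset. It changed no call of the 8 genes. The log2 fold change turned to -0.21 for Ms4a1, -0.28 for Syk and -0.22 for Plcg2 with the block, and to -0.33, -0.0688 and -0.103 in the same tumors without it (a fit chosen after seeing the data, with 168 and 88 genes), so these signs turned with the tumors left out. With block and offset it turned to -0.0587 for Cd79a, -0.0024 for Btk and -0.21 for Plcg2. Of the 8 genes 0 passed, 1 with limma and 0 to 1 with a tumor left out. Lyn turned to 0.26 with limma, 0.0839 with the tissue label and 0.0259 with the offset. With 1 tumor left out the log2 fold change ran from -0.088 to 1.16 for Ms4a1, -0.19 to 0.35 for Syk, -0.20 to 0.18 for Lyn, -0.17 to 0.39 for Btk and -0.17 to 0.38 for Plcg2.

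The number of genes related to the B-cell markers was 2 and ran from 0 to 4 with 1 tumor left out, was 3 with the length and GC correction or with deviations from genotype means, and was 0 within the tumors labelled lymph node, where r with the macrophage markers turned to 0.0231 for Cd79b, 0.68 for Syk, 0.343 for Lyn, 0.237 for Btk and 0.191 for Plcg2. With 1 tumor left out r ran from -0.33 to 0.43 for Blnk with the B-cell markers, and with the macrophage markers from -0.50 to 0.16 for Cd79a and from -0.48 to 0.17 for Syk. The cause was not tested, and the settings with tumors left out also had fewer tumors. The lowest count of the 8 genes was 1671, so counting error was small beside the spread between tumors.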
